A study of Mus musculus with 10 samples.

Results

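Ly6D+ common lymphoid progenitors (CLPs) were compared with CD127+ lymphoid-primed multipotent progenitors (LMPPs). The 2 arrays titled as Ly6D+ CLPs and the 3 titled as CD127+ LMPPs make up 5 of the 10 arrays of the series, which measured total RNA of sorted bone marrow progenitors on Affymetrix arrays. All groups came from adult C57BL/6 mice, and no transgene, deletion or treatment is named. Both groups were lineage-negative, high for Flt3 and positive for CD127, the α chain of the interleukin 7 receptor. The LMPPs were high for cKit and Sca-1, and the CLPs were low for both and positive for Ly6D. The other arrays were 3 of CD127- LMPPs, of the LMPP phenotype without CD127, and 2 of Ly6D- CLPs, of the CLP phenotype without Ly6D. The study asked how LMPPs divided by CD127 compare with CLPs.

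LMPPs are multipotent progenitors that still give rise to myeloid cells and have begun to transcribe lymphoid genes, while CLPs mainly give rise to lymphocytes. Ly6D, a surface protein held by a lipid anchor, marks the CLPs that lean to the B lineage. B cell specification runs through the transcription factors E2A, Ebf1 and Pax5, which turn on the recombinase genes and the parts of the pre-B cell receptor, and myeloid genes are shut down along the way.

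Values are log2 signals, and a gene's value is the mean over the probe sets annotated to it alone. Differences are Ly6D+ CLPs minus CD127+ LMPPs on that scale unless another pair is named. They come from limma fitted to all 10 arrays, with standard errors (SE) from that fit and p-values adjusted by the Benjamini-Hochberg method over 23152 genes. A gene was called at an adjusted p under 0.05. A low-signal limit of 4.431 was set at the 95th percentile of 1423 sensory receptor genes, whose median was 2.517, against 4.564 for all genes. Folds are given as at least a value where the dimmer group lay under that limit. Pearson correlations across genes were 0.9823 to 0.9836 among the CD127+ LMPP arrays and 0.9813 between the Ly6D+ CLP arrays, and 0.9685 to 0.9711 between the groups. Separate animals or sorts are not named for the replicates, and p-values reflect only how far these arrays spread. The labels name no hybridization day either, and whether the arrays of the groups were run together is not known. The LMPP arrays and the CLP arrays are numbered in separate blocks of the series. A difference of run, if there was one, could therefore not be told apart from a difference between LMPPs and CLPs.

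Ly6D+ CLPs differed from CD127+ LMPPs in 933 of 23152 genes (4.03%). Of these, 296 were higher (1.28% of all genes) and 637 lower (2.75%), and 101 and 220 of them differed by 2-fold or more. The median difference over all genes was 0.0053. In the same limma fit 4411 of the 23152 genes had an unadjusted p under 0.05. In each called gene the arrays of the groups did not overlap, which by itself held for 17.9% of genes in the higher and 20.0% in the lower direction. Under the low-signal limit on both sides were 38 of the higher and 14 of the lower genes. The counts rested on both Ly6D+ CLP arrays: 221 genes were called without array 1 and 194 without array 2, and 507, 495 and 491 without CD127+ LMPP array 1, 2 or 3. With the median probe set of each gene the count was 429, and with genes of low signal left out it was 1947. Where a single array is named below as ending a call, that array gave the highest adjusted p, and the loss of other arrays could end the call too.

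**Figure D1:**
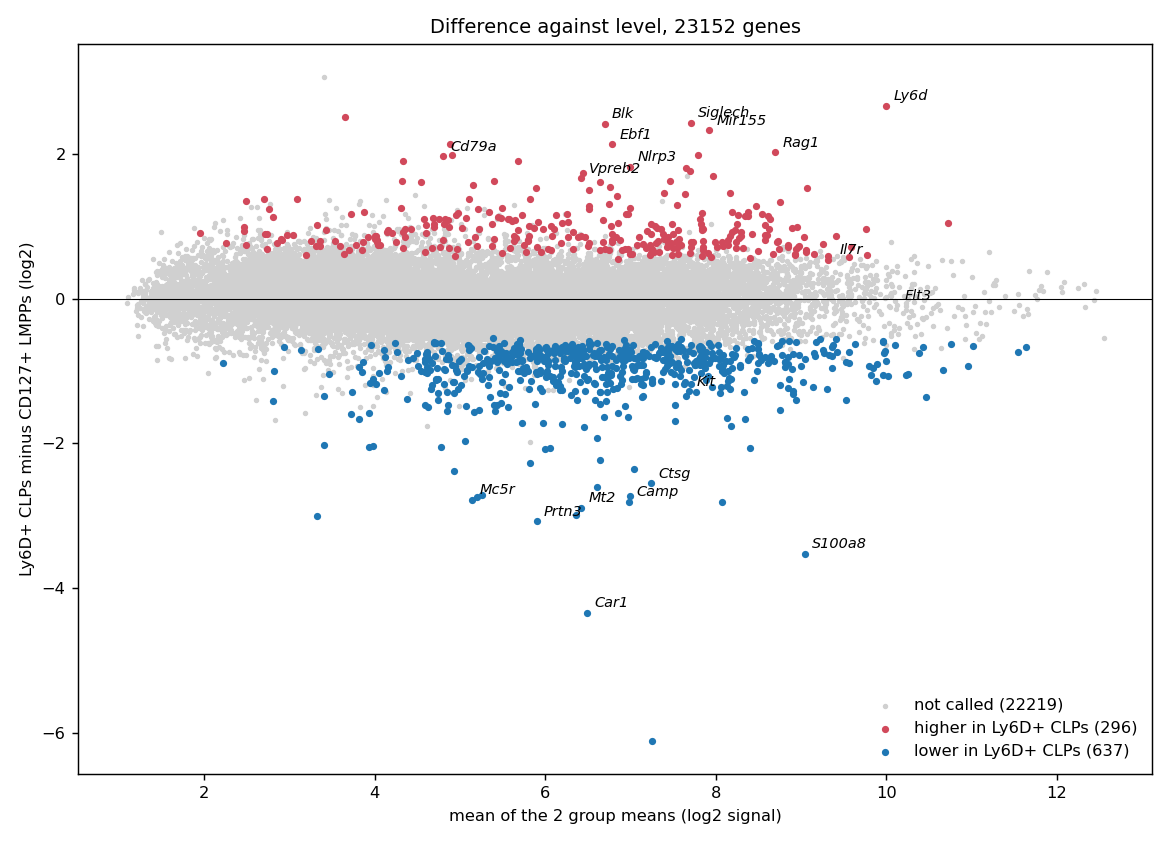
Each point is 1 of 23152 genes, with the mean of the CD127+ LMPP and Ly6D+ CLP group means (log2 signal) on the horizontal axis and the difference between them (log2) on the vertical axis. The 296 red points are higher and the 637 blue points lower in Ly6D+ CLPs, and Car1 lies at −4.33 while Ly6d lies at 2.66.

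The sort markers followed the gates for Ly6D and cKit. Ly6d stood at 11.31 and 11.35 in the Ly6D+ CLP arrays and at 8.67, 8.81 and 8.53 in the CD127+ LMPP arrays, 6.33-fold higher (log2 difference 2.66, SE 0.19, adjusted p = 9.95e-05). The LMPPs were not divided by Ly6D, yet their Ly6d values lay far above those of Ly6D- CLPs, at 5.59 and 6.17, and of CD127- LMPPs, at 4.77, 4.91 and 4.61. Kit, the gene of the stem cell factor receptor, was at 7.10 and 6.99 against 8.31, 8.40 and 8.27, and fell by 1.28 (SE 0.14, adjusted p = 0.00117). With its brightest probe set the Kit difference was −1.02 and did not pass (adjusted p = 0.0533). Il7r was high in both groups, at 9.66 and 9.62 in Ly6D+ CLPs and 9.05, 9.15 and 9.10 in CD127+ LMPPs, and the difference of 0.54 (SE 0.21) did not pass (adjusted p = 0.199). Flt3 was near 10 in all 5 arrays (difference −0.09, adjusted p = 0.793, and 0.14 with its brightest probe set). Ly6a, which encodes Sca-1 and was read by 2 probe sets, overlapped between the groups, at 5.83 and 6.77 against 7.08, 6.41 and 7.58 (adjusted p = 0.331). The Ly6a values were lower on average in Ly6D+ CLPs, the direction of the gate. With 2 probe sets and so few arrays of wide spread, they cannot show whether the mRNA followed the protein. In sorted samples such as these, fewer cells of a type and less RNA per cell cannot be told apart.

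The B lineage transcription factors were the list with the largest share of genes raised in Ly6D+ CLPs. Of 19 measured, 7 rose and 0 fell, with a median difference of 0.39. Ebf1, which specifies the B lineage, rose 4.38-fold. Its values were 7.83 and 7.86 in Ly6D+ CLPs, 5.80, 5.84 and 5.50 in CD127+ LMPPs, 5.13 and 5.46 in Ly6D- CLPs, and 2.90, 3.33 and 3.20 in CD127- LMPPs. Ebf1 was thus low in CD127- LMPPs, intermediate in the middle groups and highest in Ly6D+ CLPs, and all 21 of its probe sets were higher in Ly6D+ CLPs than in CD127+ LMPPs (log2 difference 2.13, SE 0.18, adjusted p = 0.000275). Spib, an Ets family factor of B cells and plasmacytoid dendritic cells, was at 5.29 and 5.41 against 3.85, 3.51 and 3.87 (difference 1.61, adjusted p = 0.00061).

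The other factors raised were Pou2af1, a coactivator of Oct factors, by 1.57 (adjusted p = 0.018), Irf4 by 1.10 (adjusted p = 0.0122), Lef1 by 1.08 (adjusted p = 0.0371), Bach2 by 0.86 (adjusted p = 0.0278) and Pax5, the B cell commitment factor, by 0.85 (adjusted p = 0.0192). Pax5 values were 5.66 and 5.54 in Ly6D+ CLPs and 4.59, 4.92 and 4.73 in CD127+ LMPPs, a small step above a range that all other groups shared. With the brightest probe set, Pax5 turned to −0.48 (adjusted p = 0.42). These 5 calls were also the ones that ended when an array was left out. The highest adjusted p was 0.151 for Pou2af1 without Ly6D+ CLP array 2, and 0.125 for Irf4, 0.265 for Lef1, 0.171 for Bach2 and 0.153 for Pax5 without Ly6D+ CLP array 1. The count of 7 fell to 2 without Ly6D+ CLP array 1, to 4 without array 2, and to 3 without CD127+ LMPP array 1 or 3 or with the median probe set.

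Of 22 genes of the pre-B cell receptor and B cell signalling, 6 rose and 0 fell, with a median difference of 0.28. Blk, a Src family kinase of B cells, was at 8.0 and 7.80 in Ly6D+ CLPs and 5.01, 5.62 and 5.84 in CD127+ LMPPs, 5.32-fold higher (difference 2.41, SE 0.34, adjusted p = 0.00377). Cd79a, the α chain of the B cell receptor signalling unit, was at 6.00 and 5.56 against 3.76, 4.12 and 3.58 (difference 1.96, SE 0.30, adjusted p = 0.00553). Cd79a was under the low-signal limit in every array outside the Ly6D+ CLPs, and its call ended without Ly6D+ CLP array 1 (adjusted p = 0.0703).

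Vpreb2, which encodes a surrogate light chain part, was at 7.08 and 7.43 in Ly6D+ CLPs against 5.48, 5.74 and 5.55 in CD127+ LMPPs (3.17-fold, difference 1.66, adjusted p = 0.00061). Its near-identical paralog Vpreb1 had a difference of 0.89 that did not pass (adjusted p = 0.0777) and turned to −0.47 with the median of its 3 probe sets, so the share of each gene in the signal is uncertain. Igll1, the other surrogate light chain gene, rose by 0.96 (adjusted p = 0.0195) from values under the low-signal limit. Blnk, the adaptor downstream of the receptor, was at 10.02 and 9.66 against 8.27, 8.26 and 8.39 (difference 1.53, adjusted p = 0.000622), and Cd72 rose by 0.70 (adjusted p = 0.0418). Vpreb3 (0.97, adjusted p = 0.058) did not pass. The call of Igll1 ended when any of 4 arrays was left out and that of Cd72 when any of 6 was, both Ly6D+ CLP arrays among them.

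Among 16 genes of V(D)J recombination and end joining, Rag1 was the 1 that rose, 0 fell, and the median difference was 0.05. Rag1, the DNA-cutting subunit of the recombinase, was at 9.90 and 9.51 in Ly6D+ CLPs, 7.69, 7.72 and 7.65 in CD127+ LMPPs, and 7.13 and 7.09 in Ly6D- CLPs (4.05-fold over CD127+ LMPPs, difference 2.02, SE 0.16, adjusted p = 0.000164). Rag2, its partner, lies next to it with 0 coding genes between. Rag2 values of 6.73 and 7.12 in Ly6D+ CLPs overlapped with 7.07, 7.50 and 7.51 in CD127+ LMPPs (difference −0.44, SE 0.24, adjusted p = 0.374). Dntt, which encodes terminal transferase, was between 11.48 and 11.60 in all 5 arrays (difference 0.07, adjusted p = 0.874). Rag1 was read by 2 probe sets, Rag2 by 5 and Dntt by 13.

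The sequences just before the start sites of 4 of these genes show the E-box letters that E proteins are known to bind. The 250 bases before the RefSeq start (build GRCm38.p6) were searched on both strands for CAGCTG and CAGGTG, whose other strand reads CACCTG. Of 14 B lineage and recombination genes that rose, 13 had 17 promoter entries, and 6 of the 17 held a motif (35.3%), against 9113 of 32851 promoters of the table (27.7%). A palindromic form of the site known for Ebf1 was in 0 of the 17 windows and in 256 of the 32851 (0.779%), which says only that its letters were not in these windows. The entries with a motif belonged to Blnk, Cd79a, Igll1, Lef1, Rag1 and Vpreb2. A match is a description of the letters and not of binding. The windows are chr2:101649533-101649782 (minus strand) for Rag1, chr16:17980315-17980564 (plus strand) for Vpreb2, chr16:16863986-16864235 (minus strand) for Igll1 and chr7:24897247-24897496 (plus strand) for Cd79a. Motifs are in capitals:
Rag1: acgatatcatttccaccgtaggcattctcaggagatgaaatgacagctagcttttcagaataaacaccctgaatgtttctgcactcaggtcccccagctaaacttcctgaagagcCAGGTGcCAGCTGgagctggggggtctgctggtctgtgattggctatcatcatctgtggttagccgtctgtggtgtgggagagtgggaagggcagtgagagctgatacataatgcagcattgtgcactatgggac
Vpreb2: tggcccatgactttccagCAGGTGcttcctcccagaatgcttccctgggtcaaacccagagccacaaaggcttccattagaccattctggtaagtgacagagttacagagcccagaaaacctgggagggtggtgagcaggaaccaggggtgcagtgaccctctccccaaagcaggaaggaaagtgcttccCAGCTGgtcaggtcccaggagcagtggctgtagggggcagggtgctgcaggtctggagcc
Igll1: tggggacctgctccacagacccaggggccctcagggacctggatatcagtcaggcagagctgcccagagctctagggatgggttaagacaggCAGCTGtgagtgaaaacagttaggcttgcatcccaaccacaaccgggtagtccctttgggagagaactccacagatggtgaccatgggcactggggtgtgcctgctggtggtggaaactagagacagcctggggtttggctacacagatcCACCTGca
Cd79a: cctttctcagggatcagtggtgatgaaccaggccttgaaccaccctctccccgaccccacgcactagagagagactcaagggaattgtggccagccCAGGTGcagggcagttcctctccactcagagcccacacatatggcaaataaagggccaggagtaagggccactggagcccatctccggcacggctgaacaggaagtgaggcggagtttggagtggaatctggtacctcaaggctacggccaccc
In Rag1 the motifs begin at −135 and −128 from the start site, 1 letter apart, and in Vpreb2 at −232 and −60. In Igll1 they begin at −158 and −8, and in Cd79a the single motif begins at −154.

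**Figure D2:**
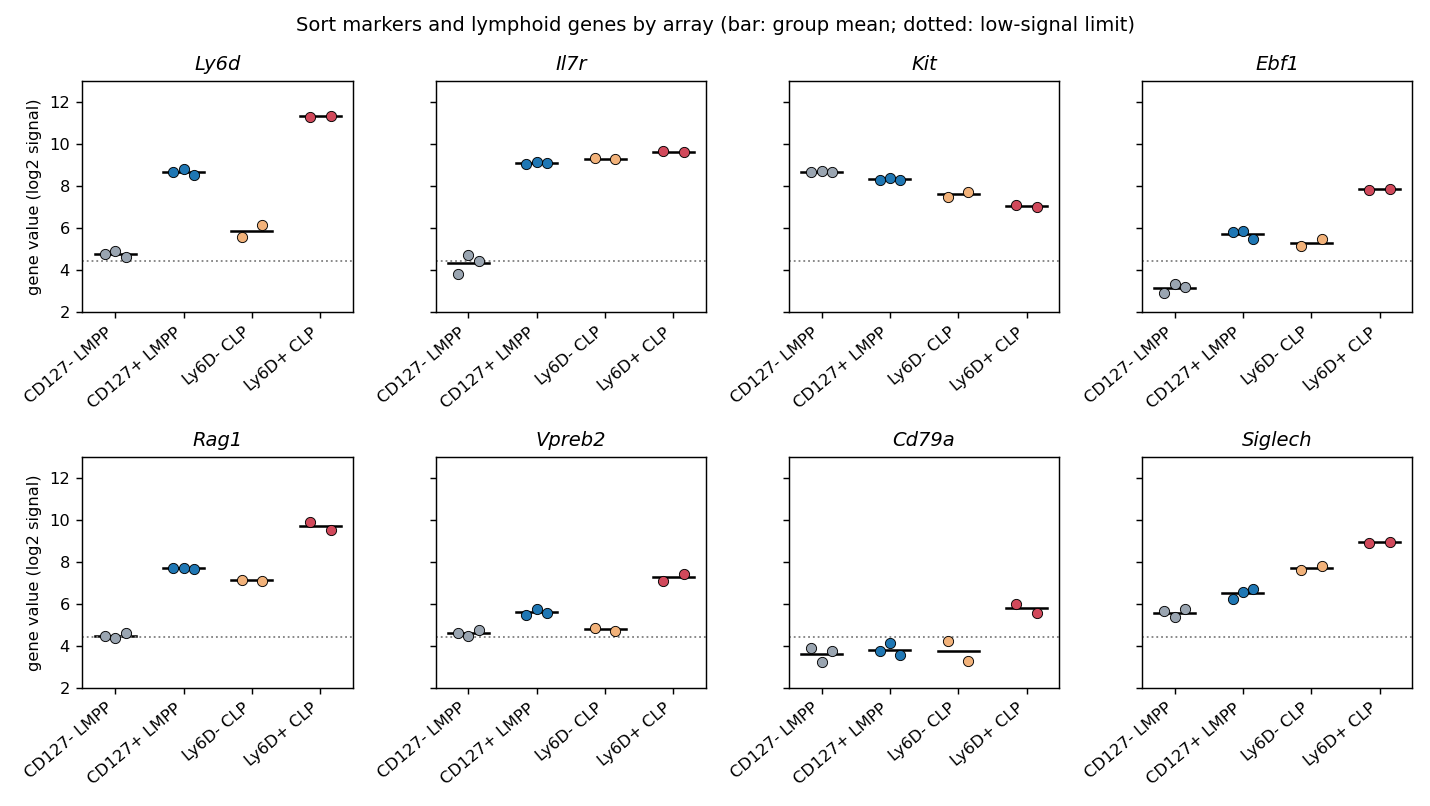
Each panel shows 1 gene, with a point for each of the 10 arrays by sorted group, its value as log2 signal, a bar at the group mean and a dotted line at the low-signal limit of 4.431. Ly6d, Ebf1, Rag1, Vpreb2 and Cd79a were highest in the Ly6D+ CLP arrays, Il7r was high in the 3 groups sorted as CD127+, and Kit was lowest in Ly6D+ CLPs.

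To see which differences were also present between the CLP groups, Ly6D+ CLPs were set against Ly6D- CLPs in the same fit. This test called 23 genes (0.0993% of 23152), 9 higher (0.0389%) and 14 lower (0.0605%). Of the 76 genes named by the rule given in the processing section, 9 were among them. Higher in Ly6D+ than in Ly6D- CLPs were Ly6d (difference 5.45, adjusted p = 6.43e-07), Rag1 (2.60, adjusted p = 0.00013), Ebf1 (2.55, adjusted p = 0.000292), Vpreb2 (2.46, adjusted p = 0.000225) and Cecr2 (1.85, adjusted p = 0.0136). Cecr2, a chromatin remodelling gene, was at 6.04 and 5.84 in Ly6D+ CLPs and between 3.36 and 4.33 in the other 8 arrays. Lower were Cpa3 (−2.12, adjusted p = 0.00509), Mc5r (−1.65, adjusted p = 0.0225), Lst1 (−1.48, adjusted p = 0.0461) and Ctsg (−1.29, adjusted p = 0.0331). Rag1, Ebf1 and Vpreb2 had values in Ly6D- CLPs that were at or below those in CD127+ LMPPs (differences of −0.58, −0.42 and −0.80, with adjusted p = 0.0851, 0.259 and 0.035).

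Blk (2.05, adjusted p = 0.0929), Cd79a (2.01, adjusted p = 0.0574) and Pou2af1 (2.01, adjusted p = 0.0618) had differences between the CLP groups of about the same size that did not pass. Trem1, a receptor of myeloid cells noticed after its values were seen, was at 6.47 and 6.53 in Ly6D+ CLPs, 3.94 and 4.63 in Ly6D- CLPs and 5.53, 5.03 and 4.84 in CD127+ LMPPs. It rose over both (differences 2.22 and 1.37, adjusted p = 0.0221 and 0.0175), and its call against CD127+ LMPPs ended without either Ly6D+ CLP array, with an adjusted p up to 0.122 without array 2. The comparison rests on 2 arrays a group. The 9 named genes became 5 without Ly6D+ CLP array 1 or Ly6D- CLP array 2, 4 without Ly6D+ CLP array 2 or with the brightest probe set, and 23 with trend and robust settings.

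Other genes were higher in both CLP groups than in CD127+ LMPPs. These comparisons share the 3 CD127+ LMPP arrays, so the values are only set side by side. Siglech, a receptor known from plasmacytoid dendritic cells, was at 8.91 and 8.93 in Ly6D+ CLPs, 7.63 and 7.80 in Ly6D- CLPs and 6.22, 6.54 and 6.72 in CD127+ LMPPs. It rose 5.38-fold in Ly6D+ CLPs (difference 2.43, SE 0.18, adjusted p = 0.000133) and by 1.22 in Ly6D- CLPs (adjusted p = 0.0122). The difference of 1.21 between the CLP groups did not pass (adjusted p = 0.0574).

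Nlrp3, an inflammasome sensor gene, was at 8.0 and 7.80 in Ly6D+ CLPs and 7.78 and 7.58 in Ly6D- CLPs, above 6.58, 5.83 and 5.84 in CD127+ LMPPs. Its differences were 1.82 (adjusted p = 0.00186) and 1.60 (adjusted p = 0.00903). Il10, which encodes a cytokine that dampens inflammation, was at 8.63 and 9.0 in Ly6D+ CLPs and 7.46, 6.76 and 7.16 in CD127+ LMPPs (difference 1.69, adjusted p = 0.00643), and 1.42 higher in Ly6D- CLPs (adjusted p = 0.0279). Every CLP array lay above every CD127+ LMPP array for both genes. The Il10 call in Ly6D+ CLPs ended without Ly6D+ CLP array 2 (adjusted p = 0.0794).

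Gzmc, a granzyme gene, rose by 1.90 (adjusted p = 0.00253) and by 1.42 in Ly6D- CLPs (adjusted p = 0.0224), and Epha2, an ephrin receptor gene, by 1.90 (adjusted p = 0.00186) and 1.05 (adjusted p = 0.0458). Ddit3, a transcription factor gene of the stress response, was at 8.95 and 8.84 against 7.62, 7.15 and 7.53 (difference 1.46, adjusted p = 0.00131; Ly6D- CLPs 1.27, adjusted p = 0.00708). Skil, a repressor in TGF-β signalling named after its values were seen, was 1.54 higher in Ly6D+ CLPs (adjusted p = 0.00061) and 1.55 higher in Ly6D- CLPs (adjusted p = 0.00167).

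**Figure D3:**
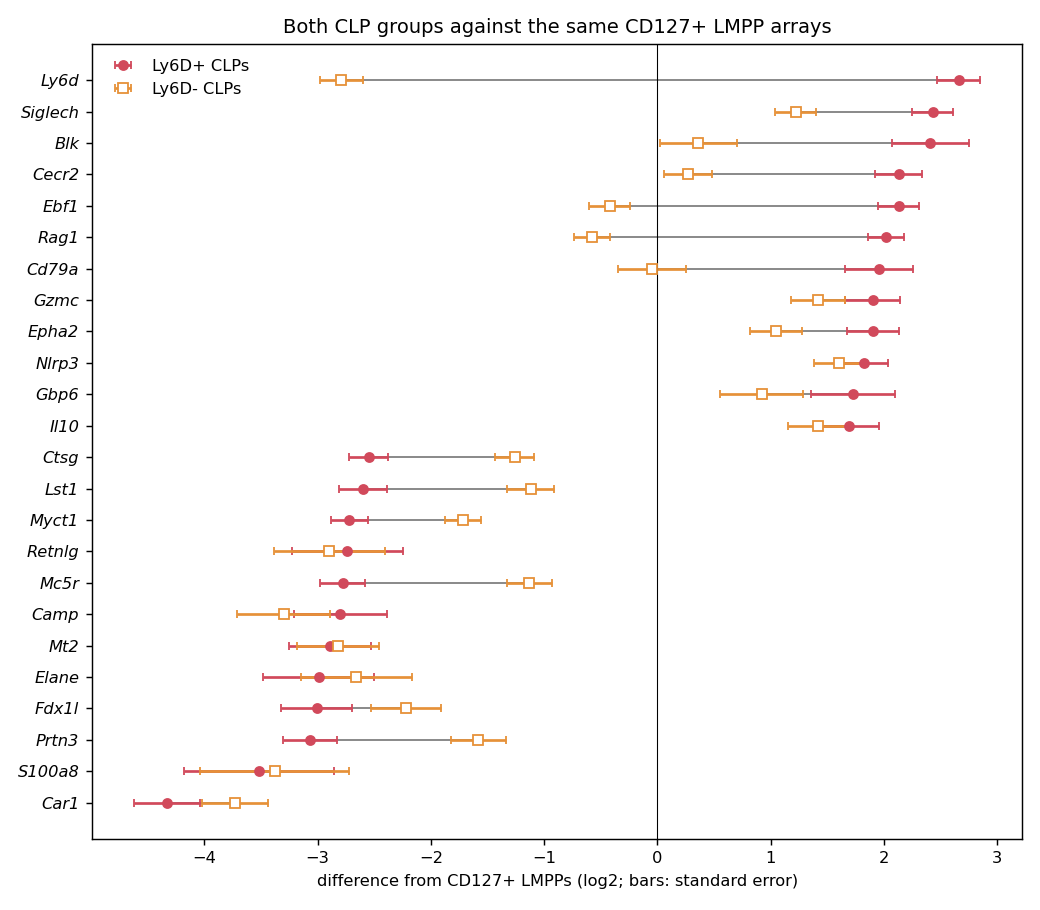
The 24 genes with the largest called differences under the naming rule are listed on the vertical axis, with the difference from CD127+ LMPPs (log2) on the horizontal axis. Filled circles are Ly6D+ CLPs, open squares are Ly6D- CLPs, and bars are standard errors. Both series share the CD127+ LMPP arrays. For Ly6d, Ebf1 and Rag1 the CLP groups lie on opposite sides of 0 (2.66 against −2.79 for Ly6d), and for Nlrp3, Mt2 and S100a8 their bars overlap.

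Of 22 genes of IL-7 and common γ chain signalling, Il2rg, the γ chain itself, was the 1 that rose (difference 0.76, adjusted p = 0.0244, and 0.165 without Ly6D+ CLP array 2). The list had 0 lower and a median difference of 0.07. Among the 23 genes of innate lymphoid and NK cells there were 4 that rose and 0 that fell, with a median of 0.23. They were Gzmc, the interleukin 18 receptor gene Il18r1 (7.98 and 8.25 against 6.69, 6.66 and 6.63, difference 1.46, adjusted p = 0.00139), Klrk1 (1.20, adjusted p = 0.0193) and Il17rb (0.67, adjusted p = 0.0471). Klrk1 was under the low-signal limit in CD127+ LMPPs and higher in CD127- LMPPs, at 5.27, 4.96 and 4.62, than in Ly6D+ CLPs, at 4.43 and 4.51. Klrk1 lost its call when any of 4 arrays was left out, and Il17rb when any of 8 was. Both Ly6D+ CLP arrays were among them, and for Il17rb so were CD127- LMPP arrays outside the pair compared. The count was 2 without CD127+ LMPP array 2, Ly6D+ CLP array 1 or Ly6D+ CLP array 2, and 1 with the brightest probe set. In Ly6D- CLPs 3 of the 23 genes were called higher than in CD127+ LMPPs and 0 lower, with a median of 0.2. Between the CLP groups 0 of the 23 were called.

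Of 21 plasmacytoid and conventional dendritic cell genes, Siglech and the integrin gene Itgax (difference 0.64, adjusted p = 0.0387) rose and Ly6c2 fell by 1.12 (adjusted p = 0.0399), with a median of 0.03. Irf8 (0.67, adjusted p = 0.118) and Tcf4 (0.21, adjusted p = 0.549), transcription factors of that lineage, did not pass. The Itgax and Ly6c2 calls each ended when any of 6 arrays was left out. In Ly6D- CLPs 3 of the 21 genes were called higher than in CD127+ LMPPs and 1 lower, with a median of 0.08. Between the CLP groups 0 of the 21 were called.

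Of 16 guanylate-binding protein and Gimap genes, GTPases of interferon responses and of lymphocytes, 5 rose and 0 fell, with a median difference of 0.54. They were Gbp6 (difference 1.73, adjusted p = 0.0262), Gbp9 (1.5, adjusted p = 0.00976), Gimap4 (1.23, adjusted p = 0.00584), Gimap8 (1.12, adjusted p = 0.0118) and Gbp4 (0.79, adjusted p = 0.0443). Gimap4 was at 5.68 and 5.97 in Ly6D+ CLPs against 4.62, 4.35 and 4.81 in CD127+ LMPPs and 4.72 and 4.35 in Ly6D- CLPs, and its difference of 1.29 from Ly6D- CLPs did not pass (adjusted p = 0.055). Gbp9 was at 7.08 and 7.45 in Ly6D+ CLPs, 6.56 and 6.96 in Ly6D- CLPs and 5.51, 5.80 and 5.98 in CD127+ LMPPs. With Ly6D+ CLP array 2 left out, or with the brightest probe set, 0 of the 16 passed, and 2 passed without Ly6D+ CLP array 1. Over the same arrays 0 of 18 interferon response genes passed with limma, and the median was −0.27. An unadjusted p under 0.05 was reached by 8 of the 18, and by 4411 of all 23152 genes. Ifi27l2a had the largest difference of the 18 (−0.84, adjusted p = 0.0959).

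The microRNA genes were looked at after their values were seen, and each is read by 1 probe set of the hairpin gene, not of the mature form. Of 489, 12 rose (2.45%) and 3 fell (0.613%), against 1.28% and 2.75% of all genes. In Ly6D- CLPs 9 of the 489 were called higher and 2 lower than in CD127+ LMPPs, and 0 were called between the CLP groups. Mir155, a microRNA of activated and germinal centre lymphocytes, was at 8.94 and 9.22 in Ly6D+ CLPs, 8.59 and 9.04 in Ly6D- CLPs and 7.15, 6.17 and 6.94 in CD127+ LMPPs (5.02-fold, difference 2.33, SE 0.26, adjusted p = 0.00138). Mir142, found across blood cells, was at 8.37 and 8.34 against 7.03, 6.76 and 6.93 (difference 1.45, adjusted p = 0.00305). Mir15a rose by 1.77 (adjusted p = 0.0192), a call that ended without Ly6D+ CLP array 2 (adjusted p = 0.159), and its host transcript Dleu2 had a difference of 0.82 that did not pass (adjusted p = 0.0608). Of the cluster within Larp7, Mir302b was at 5.97 and 5.82 against 3.66, 3.57 and 4.53 (difference 1.98, adjusted p = 0.00566) and Mir302c rose by 1.62 (adjusted p = 0.00445). Mir367 (1.34, adjusted p = 0.00878) and Mir302a (0.90, adjusted p = 0.0214) passed with both group means below the low-signal limit, and Mir302d (0.43, adjusted p = 0.419) and Larp7 itself (0.21, adjusted p = 0.582) did not pass. The calls of Mir302b, Mir367 and Mir302a ended without Ly6D+ CLP array 1 and without array 2, with adjusted p up to 0.0619, 0.0803 and 0.137, and that of Mir302c ended without array 1 (adjusted p = 0.0582). Mature forms from RefSeq are shown for the genes that rose above the limit and for Mir302d, with the seed, bases 2 to 8, in capitals:
mmu-miR-155-5p: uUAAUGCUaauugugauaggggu
mmu-miR-142a-5p: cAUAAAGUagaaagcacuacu
mmu-miR-142a-3p: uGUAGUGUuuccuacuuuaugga
mmu-miR-15a-5p: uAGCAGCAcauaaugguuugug
mmu-miR-302b-3p: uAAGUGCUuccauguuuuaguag
mmu-miR-302c-3p: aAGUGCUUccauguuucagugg
mmu-miR-302d-3p: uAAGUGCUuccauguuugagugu
The forms from Mir302b and Mir302d share the seed AAGUGCU, and in both the letters of the Mir302c seed, AGUGCUU, start at the next base. The 5 seeds printed other than AAGUGCU differ from each other.

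Genes of the primary granules and of myeloid progenitors were lower in Ly6D+ CLPs: of 22 measured, 8 fell and 0 rose, with a median difference of −0.39. In Ly6D- CLPs 5 of the 22 were called lower than in CD127+ LMPPs and 0 higher, with a median of −0.51. Between the CLP groups 1 of the 22 was called, lower in Ly6D+ CLPs, and the median was −0.07. Prtn3, the proteinase 3 gene, was at 4.31 and 4.42 in Ly6D+ CLPs, 5.60 and 6.10 in Ly6D- CLPs and 7.49, 7.58 and 7.23 in CD127+ LMPPs. It was at least 8.02-fold lower in Ly6D+ CLPs (difference −3.07, SE 0.24, adjusted p = 0.000164), where it had reached the low-signal limit. Ctsg, the cathepsin G gene, was at 5.89 and 6.03 in Ly6D+ CLPs, 7.16 and 7.34 in Ly6D- CLPs, 8.51, 8.55 and 8.48 in CD127+ LMPPs and 10.63, 10.28 and 10.13 in CD127- LMPPs (difference −2.55, SE 0.17, adjusted p = 7.51e-05). Ctsg thus fell from group to group without overlap, and Mpo, the myeloperoxidase gene, lay in the same order, at 8.23 and 8.31, then 8.86 and 9.20, then 9.51, 9.72 and 9.40, then 11.04, 10.82 and 10.71 (difference −1.27, adjusted p = 0.00312).

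Elane, the neutrophil elastase gene, lies next to Prtn3 with 0 coding genes between. It was at 5.05 and 4.67 in Ly6D+ CLPs, 5.11 and 5.26 in Ly6D- CLPs and 8.06, 7.80 and 7.67 in CD127+ LMPPs (7.93-fold lower, difference −2.99, SE 0.49, adjusted p = 0.00795). Its values in the CLP groups were close to each other, with a difference of −0.33 (adjusted p = 0.901), and the difference of −1.49 in Prtn3 between these groups did not pass either (adjusted p = 0.0875). Ms4a3 (−2.39, adjusted p = 0.0233), the chemokine gene Ccl9 (−1.92, adjusted p = 0.00124), the granulocyte colony-stimulating factor receptor gene Csf3r (−1.45, adjusted p = 0.00117) and the hexokinase gene Hk3 (−1.03, adjusted p = 0.0146) completed the list. Without Ly6D+ CLP array 1 or 2, 5 of the 8 were called. Elane lost its call without either of them, Ms4a3 when any of 5 arrays was left out and Hk3 when any of 3 was.

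The windows before Prtn3, Elane and Mpo share the letters GAGGAAGT, a form of the purine-rich core known for the myeloid factor PU.1. Searched as above on both strands, it was in 3 of the 8 promoters of these genes (37.5%), in 802 of 32851 promoters (2.44%) and in 1 of the 17 entries of B lineage and recombination genes (5.88%), that of Cd72. It was chosen after the genes were known, so its shares are not a test of these genes. CAGCTG or CAGGTG was in 2 of the 8 (25%). The windows, from RefSeq on build GRCm38.p6, are chr10:79879417-79879666 (plus strand) for Prtn3, chr10:79886062-79886311 (plus strand) for Elane and chr11:87793534-87793783 (plus strand) for Mpo:
Prtn3: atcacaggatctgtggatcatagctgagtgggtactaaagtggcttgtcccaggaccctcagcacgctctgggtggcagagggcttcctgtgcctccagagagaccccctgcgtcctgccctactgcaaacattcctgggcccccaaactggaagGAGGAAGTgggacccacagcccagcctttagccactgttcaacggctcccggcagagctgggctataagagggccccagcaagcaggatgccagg
Elane: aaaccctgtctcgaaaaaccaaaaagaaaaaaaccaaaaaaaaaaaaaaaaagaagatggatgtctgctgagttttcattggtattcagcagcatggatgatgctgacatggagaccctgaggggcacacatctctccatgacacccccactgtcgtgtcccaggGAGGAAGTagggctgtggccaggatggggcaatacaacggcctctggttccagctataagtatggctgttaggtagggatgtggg
Mpo: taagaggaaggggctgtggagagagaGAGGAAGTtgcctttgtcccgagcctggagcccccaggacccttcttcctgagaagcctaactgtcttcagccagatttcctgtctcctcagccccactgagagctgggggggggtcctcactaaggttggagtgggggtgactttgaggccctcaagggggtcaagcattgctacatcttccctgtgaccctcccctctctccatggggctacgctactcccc
The motif, in capitals, begins at −95, −85 and −224 from the start sites of Prtn3, Elane and Mpo.

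Late neutrophil granule genes were lower in Ly6D+ CLPs too. Of 14, 7 fell and 0 rose, all 14 differences were below 0, and the median was −1.38. S100a8, a calprotectin subunit gene, was at 7.86 and 6.70 in Ly6D+ CLPs and 10.77, 11.08 and 10.55 in CD127+ LMPPs (11.5-fold lower, difference −3.52, SE 0.66, adjusted p = 0.0147). Camp, the cathelicidin gene, was at 5.85 and 5.32 against 8.04, 8.81 and 8.31 (difference −2.80, adjusted p = 0.00488). Both were high in CD127+ LMPPs and lower in all other groups, with Camp at 4.34, 5.61 and 4.32 in CD127- LMPPs. Retnlg (−2.74, adjusted p = 0.0124), Chi3l3 (−2.07, adjusted p = 0.026), S100a9 (−2.06, adjusted p = 0.024), Lcn2 (−1.56, adjusted p = 0.0281) and Ifitm6 (−1.28, adjusted p = 0.0296) were the others that fell, and Ngp (−1.27, adjusted p = 0.0559) did not pass. S100a8 and S100a9 lie next to each other.

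The mean level of the 14 late neutrophil genes was 4.74 to 5.36 in Ly6D+ CLP arrays, 6.31 to 7.02 in CD127+ LMPP arrays, 4.95 to 4.96 in Ly6D- CLP arrays and 4.64 to 5.49 in CD127- LMPP arrays. Between the CLP groups their median difference was 0.02. Whether mature neutrophils or their RNA in the CD127+ LMPP samples had a part in these values was not tested. These calls depended on single arrays: 0 of 14 were called without Ly6D+ CLP array 2, 3 without array 1, and 3 and 2 without CD127+ LMPP array 1 and 2. Adjusted p without Ly6D+ CLP array 2 was 0.14 for S100a8, 0.0629 for Camp, 0.123 for Retnlg, 0.205 for S100a9, 0.211 for Lcn2 and 0.186 for Ifitm6, and without array 1 it was 0.156 for Chi3l3. With the median probe set 3 were called.

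**Figure D4:**
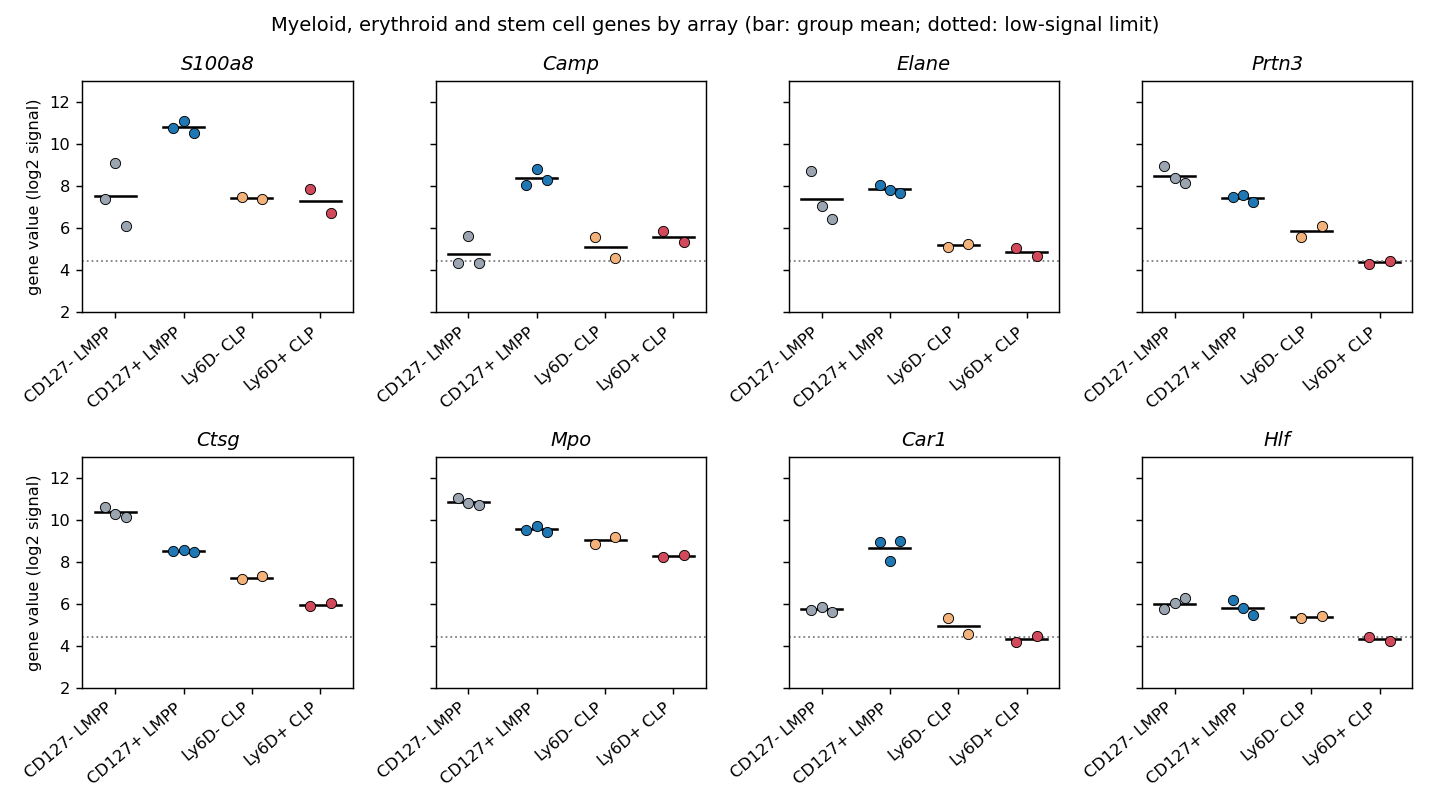
Each panel shows 1 gene, with a point for each of the 10 arrays by sorted group, its value as log2 signal, a bar at the group mean and a dotted line at the low-signal limit of 4.431. Ctsg and Mpo step down from CD127- LMPPs to Ly6D+ CLPs, while S100a8, Camp and Car1 are highest in CD127+ LMPPs, where Car1 reached 8.93, 8.06 and 8.97.

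Among 18 monocyte and macrophage genes, F13a1, a coagulation factor subunit gene (difference −1.30, adjusted p = 0.0318), Ms4a6c (−0.98, adjusted p = 0.00488) and Cd68 (−0.68, adjusted p = 0.0407) fell, Klf4 rose by 0.84 (adjusted p = 0.0254), and the median was −0.30. The receptor gene Csf1r, already low in CD127+ LMPPs, did not pass (−0.26, adjusted p = 0.461). Of these 18 genes 8 lay below the low-signal limit on both sides, and their mean level was 5.03 to 5.18 in Ly6D+ CLPs and 5.34 to 5.41 in CD127+ LMPPs. Lst1, a leukocyte transcript, was at 5.06 and 5.53 against 7.96, 7.77 and 7.97 (difference −2.60, adjusted p = 0.000166). The call of Ms4a6c ended without Ly6D+ CLP array 1. Those of F13a1 and Klf4 each ended when any of 4 arrays was left out, and that of Cd68 when any of 6 was.

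Of 13 erythroid genes, 4 fell and 1 rose, with a median of −0.60. Car1, a carbonic anhydrase gene of erythroid cells, was at 4.17 and 4.48 in Ly6D+ CLPs, 5.31 and 4.54 in Ly6D- CLPs, 8.93, 8.06 and 8.97 in CD127+ LMPPs and 5.70, 5.86 and 5.63 in CD127- LMPPs. It was at least 18.7-fold lower in Ly6D+ CLPs than in CD127+ LMPPs (difference −4.33, SE 0.29, adjusted p = 7.51e-05), and CD127+ LMPPs were the highest of all groups. Car2 was at 5.61 and 6.12 against 8.26, 7.84 and 8.57 (difference −2.36, adjusted p = 0.000666), and Rhag (−1.18, adjusted p = 0.0128) and Ermap (−0.81, adjusted p = 0.0358) were the others. Ermap turned to 0.22 with its brightest probe set. Tfrc, the transferrin receptor gene, went the other way, at 9.05 and 9.15 against 8.11, 8.22 and 8.07 (difference 0.97, adjusted p = 0.00439). The mean level of the list was 5.01 to 5.10 in Ly6D+ CLPs, 4.98 to 5.23 in Ly6D- CLPs, 5.60 to 6.03 in CD127+ LMPPs and 5.01 to 5.15 in CD127- LMPPs. In Ly6D- CLPs 4 of the 13 genes were also called lower than in CD127+ LMPPs. A part of erythroid cells in these levels was not tested. The call of Tfrc ended without Ly6D+ CLP array 2, and those of Rhag and Ermap ended without either Ly6D+ CLP array. The count of 4 was 2 without either array or with the brightest probe set.

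The metallothionein genes Mt2 and Mt1 fell together. Mt2 was at 4.84 and 5.12 in Ly6D+ CLPs and 8.36, 7.20 and 8.04 in CD127+ LMPPs (7.40-fold lower, difference −2.89, adjusted p = 0.00204). Mt1, looked at because of Mt2, was at 5.92 and 5.82 against 7.83, 7.11 and 7.57 (difference −1.64, adjusted p = 0.0104, and 0.0882 without Ly6D+ CLP array 2). Between the CLP groups the difference was −0.06 for each gene. Mc5r, a melanocortin receptor gene, was at 3.81 and 3.69 against 6.68, 6.48 and 6.43 (difference −2.78, adjusted p = 0.000108), and Myct1 at 3.78 and 4.02 against 6.86, 6.44 and 6.54 (difference −2.72, adjusted p = 7.51e-05). The ferredoxin-like gene Fdx1l, on 1 probe set, fell by 3.01 (adjusted p = 0.000752) to values far under the low-signal limit. The largest difference of any gene was that of Scarna2, a small RNA of Cajal bodies outside the naming rule and read by 1 probe set. It was at 3.59 and 4.82 in Ly6D+ CLPs, 4.11 and 6.11 in Ly6D- CLPs and 10.49, 10.50 and 9.91 in CD127+ LMPPs (at least 58.5-fold lower, difference −6.10, SE 0.50, adjusted p = 0.000198). Both LMPP groups were high for Scarna2 and both CLP groups low, and the difference from Ly6D- CLPs, −0.91, did not pass (adjusted p = 0.665).

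Stem cell and multipotency genes, 23 in number, had 7 that fell and 0 that rose, with a median of −0.47. Hlf, a transcription factor gene of stem cells, was at 4.44 and 4.21 in Ly6D+ CLPs, 5.32 and 5.40 in Ly6D- CLPs and 6.19, 5.79 and 5.45 in CD127+ LMPPs (difference −1.49, adjusted p = 0.00492). Hoxa9 was at 6.35 and 6.33 against 7.43, 7.56 and 7.25 (difference −1.07, adjusted p = 0.00528), and Cd34, which encodes a progenitor surface protein, at 9.18 and 9.40 against 10.45, 10.37 and 10.22 (difference −1.06, adjusted p = 0.00365). Cd34 was still among the brighter genes of Ly6D+ CLPs, while Hlf had come down to the low-signal limit. Mecom (−0.93, adjusted p = 0.0409), Gata2 (−0.91, adjusted p = 0.0258), the niche ligand gene Angpt1 (−0.78, adjusted p = 0.0323) and Hmga2 (−0.71, adjusted p = 0.0491) were the others. Mecom turned to 0.24 with its brightest probe set. Without Ly6D+ CLP array 1 or array 2 a single gene of the 7 was called, Hlf and Cd34 in turn, and 3, 3 and 4 without CD127+ LMPP array 1, 2 and 3. The adjusted p rose to 0.0524 for Cd34, 0.222 for Mecom and 0.21 for Gata2 without Ly6D+ CLP array 1, and to 0.0629 for Hlf, 0.06 for Hoxa9, 0.204 for Angpt1 and 0.266 for Hmga2 without array 2. With the median probe set 4 were called.

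Of 15 mast cell, basophil and eosinophil genes, Gata2 and Cpa3 fell, 0 rose, and the median was −0.19, and 9 of them lay below the low-signal limit on both sides. Cpa3, the mast cell carboxypeptidase gene, was at 4.29 and 3.78 in Ly6D+ CLPs, 5.97 and 6.35 in Ly6D- CLPs, 5.45, 5.32 and 5.55 in CD127+ LMPPs and 4.70, 4.17 and 4.54 in CD127- LMPPs. It was highest in Ly6D- CLPs and lowest in Ly6D+ CLPs (difference from CD127+ LMPPs −1.40, adjusted p = 0.00516, and 0.0717 without Ly6D+ CLP array 2). With its brightest probe set the difference turned to 0.26 (adjusted p = 0.548). Of 14 megakaryocyte and platelet genes, Gp9 fell by 0.93 (adjusted p = 0.0327), Itgb3 rose by 0.86 (adjusted p = 0.0166) and the median was −0.28. Each call ended when any of 4 arrays was left out, both Ly6D+ CLP arrays among them.

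The ribosomal protein and oxidative phosphorylation genes were grouped by their symbols after the values were seen, without pseudogenes, S6 kinases, binding proteins or assembly factors. Of 66 ribosomal protein genes 9 fell (13.6%) and 1, Rpl3l, rose, with a median difference of −0.25. Of 75 genes of oxidative phosphorylation subunits 16 fell (21.3%) and 0 rose, with a median of −0.52. Cox5a, a cytochrome oxidase subunit gene, was at 9.67 and 9.74 in Ly6D+ CLPs, 9.68 and 9.61 in Ly6D- CLPs and 10.74, 10.74 and 10.77 in CD127+ LMPPs (difference −1.05, adjusted p = 0.00269). Cox6b1 fell by 1.04 (adjusted p = 0.00305), Ndufa11 by 1.25 (adjusted p = 0.0126), Rpl30 by 1.36 (adjusted p = 0.00547) and Rpl8 by 0.63 (adjusted p = 0.0257). Against the same arrays, 4 of the ribosomal and 8 of the oxidative phosphorylation genes fell in Ly6D- CLPs. The calls also varied with the number of probe sets: among genes above the low-signal limit, 6.76% of those with 1 to 4 probe sets and 7.16% of those with 5 to 10 fell, against 2.48% of those with more than 10. The median number of probe sets was 3 for the ribosomal and 6 for the oxidative phosphorylation genes, and the part of probe set number in their decrease was not tested. The calls of Rpl30 and Rpl8 ended without Ly6D+ CLP array 1 (adjusted p = 0.0724 and 0.177) and that of Ndufa11 without array 2 (adjusted p = 0.129).

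In the remaining lists at most 2 genes passed. Of 20 T lineage and Notch genes limma called 0, and the median was −0.06. At an unadjusted p under 0.05 were 5 of the 20, and 4411 of all 23152 genes. Thy1 had the largest difference of the 20 (0.87, adjusted p = 0.0586). Tcf7, an early T lineage factor gene, was at 5.50 and 5.10 in Ly6D+ CLPs, 6.61 and 6.48 in Ly6D- CLPs and 5.38, 5.44 and 5.82 in CD127+ LMPPs. It was thus highest in Ly6D- CLPs, 1.00 above CD127+ LMPPs (adjusted p = 0.0255), and the difference of −1.25 between the CLP groups did not pass (adjusted p = 0.0546). Of 9 E protein and Id protein genes limma called 0, with 3 at an unadjusted p under 0.05. Tal1 had the largest difference (−0.82, adjusted p = 0.0516), while the E2A gene Tcf3 (−0.35, adjusted p = 0.285) and the inhibitor gene Id2 (0.18, adjusted p = 0.609) did not pass.

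Of 29 DNA replication and mitosis genes the 1 called was Cdc20, which fell by 0.76 (adjusted p = 0.0334), and the median was 0.01. Mki67 was between 9.08 and 9.54 in all 5 arrays (difference 0.29, adjusted p = 0.278). Of 25 immediate early and stress genes Ddit3 and Egr3 (1.04, adjusted p = 0.0225) rose. Of 15 Bcl2 family genes Bcl2l11, which encodes the death-promoting protein Bim, rose by 0.70 (adjusted p = 0.0347), and Bcl2 (0.05, adjusted p = 0.889) and Mcl1 (0.40, adjusted p = 0.183) did not pass. Of 18 glycolysis and nutrient uptake genes Pkm fell by 0.72 (adjusted p = 0.0284), with a median of −0.35. Of 20 homing receptors and integrins S1pr1, the receptor for exit from the marrow, rose by 0.72 (adjusted p = 0.0349) and Cd34 fell. Cdc20 and S1pr1 lost their calls when any of 6 arrays was left out, Bcl2l11 and Pkm when any of 5 was, and Egr3 when any of 4 was.

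Among markers of other marrow cells, 5 of 11 mature B and plasma cell genes and 8 of 15 stroma and endothelium genes were below the low-signal limit on both sides, as were 43.7% of all genes. An unadjusted limma p under 0.05 held for 4411 of all 23152 genes. Of the 11 mature B and plasma cell genes it held for 1, and 0 were called. Their mean level was 4.82 to 4.86 in Ly6D+ CLPs and 4.66 to 4.74 in CD127+ LMPPs, and Tnfrsf17, below the limit on both sides, had the largest difference (0.46, adjusted p = 0.266). Of 15 stroma and endothelium genes Emcn fell, at 4.44 and 4.30 against 5.86, 5.80 and 6.17 (difference −1.57, adjusted p = 0.00117), and the median was −0.03. Their mean level was 4.42 to 4.51 in Ly6D+ CLPs and 4.49 to 4.67 in CD127+ LMPPs.

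**Figure D5:**
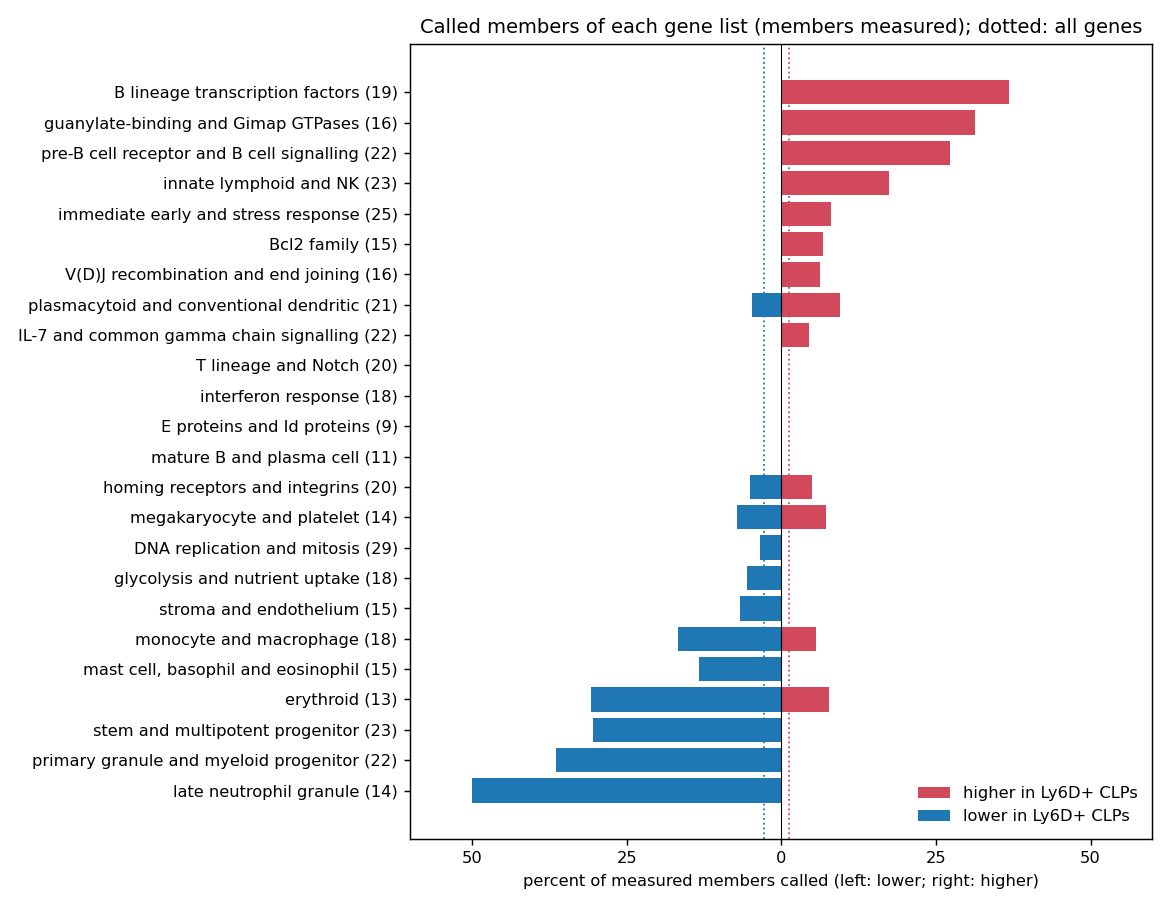
Bars give the percent of the measured members of each gene list that were called higher (right, red) or lower (left, blue) in Ly6D+ CLPs than in CD127+ LMPPs, with the number measured in brackets and dotted lines at the shares of all genes, 1.28% and 2.75%. The B lineage factors reach furthest to the right with 7 of 19, and the late neutrophil granule genes furthest to the left with 7 of 14.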

How the data were processed

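RNA of 10 samples in 4 sorted groups was measured on Affymetrix arrays. The deposited values ran from 0.20433 to 14.79009 and were taken to be log2 signals for that reason. The authors used Affymetrix Power Tools, per the submitters' processing notes, with a log base, summary method, normalization and build not given in the sources used here. Quartiles differed between arrays by at most 0.125, so nothing was normalized further. The number of arrays limits the precision.

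Of 269751 probe sets, the 233753 with 1 gene symbol in the platform annotation were averaged into 23152 genes (median 8 probe sets, 2319 genes on 1). Another 5106 had several symbols and 30892 none. Of the symbols, 20875 were current in RefSeq's GRCm38.p6 table, 2274 older synonyms and 3 absent. A mean for each of the 4 groups was fitted with limma 3.58.1 in R 4.3.3 (lmFit, contrasts.fit, eBayes), with Benjamini-Hochberg adjustment at 0.05. The steps were tested on simulated data. Figures were drawn with Python 3.11.15 and matplotlib 3.10.9.

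Genes were named by a rule: the 12 largest called differences in each direction without overlap (leaving out predicted genes, small RNAs and antigen receptor segments), the 5 sort markers, and from each of 25 gene lists up to 5 called members in each direction or else the largest difference. Other genes were named after their values were seen. The groups compared and the lists were chosen with earlier results of these data known, so the lists are described by counts and medians and not tested, and they share members. Further settings tried were a replicate block, the brightest or median probe set, dim genes left out, centring on the median, quantile normalization, trend and robust fits, array weights, the compared arrays alone, stricter thresholds and each array left out.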

Additional observations from a re-analysis of the deposited data

Results flagged for a closer look

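Probe sets without a gene symbol were outside the gene comparison. Tested over all 269751 probe sets with the same limma model, 3 of the 30892 were higher and 2 lower in Ly6D+ CLPs, against 15 higher and 48 lower of the 233753 with 1 symbol and 0 of the 5106 with several. The 3 that were higher were singled out because a signal rose in data that the gene comparison does not use. The first was at 7.80 and 7.82 in Ly6D+ CLPs and 5.04, 4.74 and 5.31 in CD127+ LMPPs, a log2 difference of 2.78 (adjusted p = 0.0411), with Ly6D- CLPs at 4.94 and 5.0. Its values were highest in Ly6D+ CLPs. The second was at 9.84 and 9.78 against 7.73, 7.56 and 7.61 (difference 2.18, adjusted p = 0.0462), and the third at 7.29 and 7.80 against 4.80, 4.43 and 4.16 (difference 3.09, adjusted p = 0.047). Both of these were also high in Ly6D- CLPs, at 9.31 and 9.37 and at 6.69 and 7.0. The 2 that were lower stood apart from the other 8 arrays too: one was at 1.14 and 1.04 in Ly6D+ CLPs and between 4.75 and 5.95 elsewhere (difference from CD127+ LMPPs −4.12, adjusted p = 0.0312), and the other at 3.10 and 3.43 against 5.90 to 6.71 (difference −2.85, adjusted p = 0.047). No gene is named for these 5 probe sets here.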

How the results depend on the processing

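The size of the called lists depended on the settings. Over 2399 values of 115 named genes, 6 changed sign: Flt3 (0.14), Ermap (0.22), Cpa3 (0.26), Mecom (0.24) and Pax5 (−0.48) with the brightest probe set and Vpreb1 (−0.47) with the median probe set. Some of the settings leave both group means as they are, so no sign could change in them. They are the stricter p threshold, dim genes left out, trend and robust settings, the compared arrays alone, and the loss of a CD127- LMPP or Ly6D- CLP array. Of 98 named calls, 34 survived the loss of any 1 array and 14 survived every alternative fit they entered (Gzmc and Fdx1l, dim on average, were not in the fit without dim genes), and 53 and 55 ended without Ly6D+ CLP array 1 and 2. The cause of these changes was not tested. When an array is left out, the number of arrays is also smaller.

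Against 933 calls (296 higher, 637 lower), the median probe set gave 429 (123 and 306), dim genes left out 1947 (627 and 1320), trend and robust settings 1954 (713 and 1241), array weights 1423 (496 higher), a 2-fold threshold 321 (101 and 220) and an adjusted p under 0.01 273 (82 and 191). With each array left out the counts ran from 194 to 1016, from 59 to 319 higher and from 135 to 697 lower.

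No label says that replicate numbers pair the samples, and the deviations of same-numbered Ly6D+ CLP and CD127+ LMPP arrays from their group means correlated at −0.0431 and 0.0197 across genes. The deviations of 2 arrays from their mean mirror each other, so these are not 2 separate checks and cannot decide whether the samples were paired. The replicate block gave 553 (162 and 391), and with the 2 full pairs alone 45 (17 and 28). With the block, 10 late neutrophil genes, 4 B lineage factors, 4 stem cell and 2 innate lymphoid genes passed, and 5 named genes between the CLP groups. With the 2 pairs alone Kit did not pass (adjusted p = 0.0674), and there were 1 B lineage factor, 1 stem cell and 1 innate lymphoid gene, and 2 pre-B receptor, 5 primary granule, 2 late neutrophil, 1 erythroid and 3 guanylate-binding or Gimap genes. The arrays share only a number.

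With the median probe set, 3 B lineage factors, 3 late neutrophil, 4 stem cell and 2 guanylate-binding or Gimap genes passed. With the brightest probe set the counts were 2 erythroid, 1 innate lymphoid, 0 guanylate-binding or Gimap and 4 named genes between the CLP groups. An adjusted p under 0.01 left 2 B lineage factors, 1 late neutrophil, 2 erythroid, 3 stem cell, 2 innate lymphoid, 2 guanylate-binding or Gimap and 5 named genes between the CLP groups, and a 2-fold threshold left 3 stem cell genes. Between the CLP groups, 15 named genes passed with dim genes left out and 23 with trend and robust settings.

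With an array left out, the counts ran from 2 to 7 for B lineage factors, 3 to 7 for pre-B receptor, 5 to 8 for primary granule, 0 to 9 for late neutrophil, 2 to 5 for erythroid, 1 to 8 for stem cell, 2 to 4 for innate lymphoid and 0 to 5 for guanylate-binding or Gimap genes, and from 4 to 9 for named genes between the CLP groups. Quantile normalization and median centring changed none of these list counts by more than 1.5 times. Values under the low-signal limit carry little information on level.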
